A study of Mus musculus with 25 samples.

Results

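The DNA replication and S phase genes described here are 36 listed genes whose products copy the genome, from the proteins that mark replication origins to those that pack new DNA into chromatin. They were listed by name, with earlier results of these data known, and 35 of them were found among the 17016 gene symbols measured. Gins1, a subunit of the replicative helicase, had no probe under its symbol. Transcript levels were measured in RNA of whole liver homogenates of untreated mice on 25 single-colour arrays. The mutant mice lack Mcl-1, an anti-apoptotic protein of the BCL-2 family, in hepatocytes only. Knockout (n = 3), hemizygous (n = 3) and wild-type (n = 2) mice were 2 months old. Knockout mice of 8 months (n = 3) and of 12 months (n = 4) each gave 1 tumor and 1 sample of non-tumor tissue, and wild-type mice of 12 months (n = 3) gave liver. The sample names code the knockout as "ff" and the hemizygous mice as "fplus"; the Cre line, the part of Mcl1 that was deleted and the sex of the mice are not given in the sources used here. Each animal gave 1 array per tissue, so that the p-values measure the spread between animals. In a whole liver homogenate, a difference in the number of cells of a type and a difference in RNA per cell cannot be told apart.

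Before a cell divides, the origin recognition complex (Orc1, Orc6) with Cdc6 and Cdt1 loads the ring of Mcm2 to Mcm7 onto DNA. Mcm10, Cdc45 and the GINS complex then turn that ring into an active helicase, and DNA polymerases, the sliding clamp Pcna with its loader, and enzymes that join DNA fragments copy both strands. Most hepatocytes of an adult liver rest outside the cycle and enter S phase after injury or loss of liver mass. Many genes of this machinery are known targets of E2F transcription factors, which are held back by retinoblastoma family proteins in resting cells.

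Promoter sequences are shown for 4 genes on which the comparisons turn. Mcm6, Uhrf1 and Rrm2 were among the genes with the largest positive differences in knockout liver of 12 months, and Mcm10 had the largest negative one. Each run holds the 250 bases before the start given by RefSeq (GRCm38.p6), 5′ to 3′ in the direction of the gene. Capitals mark matches, on either strand, to the E2F-type motifs TTTCCCGC, TTTCGCGC, TTTGCCGC and TTTGGCGC. The Mcm6 window lies at chr1:128359706-128359955 on the minus strand, that of Uhrf1 at chr17:56303087-56303336 on the plus strand, that of Rrm2 at chr12:24708004-24708253 on the plus strand and that of Mcm10 at chr2:5012792-5013041 on the minus strand.
Mcm6: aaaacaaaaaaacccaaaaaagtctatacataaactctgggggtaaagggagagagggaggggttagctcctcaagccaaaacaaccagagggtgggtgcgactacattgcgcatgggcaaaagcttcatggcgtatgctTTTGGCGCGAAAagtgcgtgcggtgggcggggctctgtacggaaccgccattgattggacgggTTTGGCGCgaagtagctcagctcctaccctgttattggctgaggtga
Uhrf1: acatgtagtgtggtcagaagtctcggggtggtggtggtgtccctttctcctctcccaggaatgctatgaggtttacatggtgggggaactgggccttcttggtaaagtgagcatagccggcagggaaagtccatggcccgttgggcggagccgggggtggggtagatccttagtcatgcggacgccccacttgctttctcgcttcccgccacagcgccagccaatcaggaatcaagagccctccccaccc
Rrm2: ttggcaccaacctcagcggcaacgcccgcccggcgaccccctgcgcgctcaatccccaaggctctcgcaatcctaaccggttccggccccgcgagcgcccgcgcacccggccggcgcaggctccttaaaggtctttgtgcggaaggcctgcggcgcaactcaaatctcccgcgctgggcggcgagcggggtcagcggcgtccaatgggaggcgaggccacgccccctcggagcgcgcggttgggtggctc
Mcm10: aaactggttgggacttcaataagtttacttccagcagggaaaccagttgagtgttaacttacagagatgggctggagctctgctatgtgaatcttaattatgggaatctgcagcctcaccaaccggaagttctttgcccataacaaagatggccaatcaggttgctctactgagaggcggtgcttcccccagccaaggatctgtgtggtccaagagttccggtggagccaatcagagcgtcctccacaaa

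The Mcm6 window held 3 such matches, which begin 110, 106 and 47 bases before the start, and the first 2 overlap. The printed windows of Uhrf1, Rrm2 and Mcm10 held none. RefSeq promoters were matched for 31 of the 35 genes; Prim2, Gins2, Pole and Mcm4 were not matched. At least 1 window of the gene held an E2F-type match for 8 of these 31 genes (25.8%), namely Cdc6, Mcm5, Mcm6, Mcm7, Orc1, Pola1, Rfc3 and, in its second window, Uhrf1. Among the 27025 genes of the RefSeq table the share was 2.16%, and among 22 genes of mitosis it was 4.55%. The CCAAT box (CCAAT, either strand) was found for 19 of 31 replication genes (61.3%), against 37.5% of all genes and 81.8% of the mitosis genes. The CHR element (TTTGAA, either strand) was found for 3 of 31 (9.68%), against 18.3% of all genes and 31.8% of the mitosis genes. None of these motifs contains another. A match describes the letters of a window and was not tested as a binding site.

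The level of a gene is the log2 of its processed signal minus the 75th percentile of its array, so that 0 is the level of that percentile. Between 60.2% and 84.8% of probes were well above background per array, with wild-type animal 641 at the top. Of the 35 genes, 33 were well above background on all 25 arrays, Cdc6 on 23 and Orc1 on 12. The arrays lay on 8 slides scanned on 2 days, and each slide holds 1 or 2 of the groups. No slide holds both knockout and wild-type liver of the same age, so slide and genotype cannot be told apart from those groups alone. At 2 months the wild-type arrays lay on slide 1 and the knockout arrays on slides 2 and 3. At 12 months the wild-type arrays lay on slides 3 and 4 and the knockout arrays on slides 7 and 8. Wild-type animals 552 and 1110 were scanned on the second day, and all knockout arrays of 12 months on the first. Mcl1 had levels of 1.84, 1.53 and 2.09 in knockout liver at 2 months, against 4.02 and 4.50 in wild-type liver (change -2.44, SE 0.37, adjusted p = 0.0457 in limma). In older knockout mice it spanned 1.46 to 2.96 in tumors and 1.68 to 3.06 in non-tumor tissue, against 3.20 to 3.58 in hemizygous and 3.88 to 4.50 in wild-type liver, so that no knockout array reached a hemizygous or wild-type one. At 12 months it passed the test in tumors against wild-type liver (change -1.99, SE 0.35, adjusted p = 0.0381) and not in non-tumor tissue (change -1.66, SE 0.31, adjusted p = 0.0941); non-tumor tissue of 12 months differed from knockout liver of 2 months by 0.80, SE 0.31, adjusted p = 0.232. All 8 measured hepatocyte markers were well above background in every group.

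In the replication genes 2 knockout animals stood apart. For each array, the median over the 35 genes of the deviation from the mean of the 5 wild-type arrays was taken. At 2 months it was 1.30 in knockout animal 64, 0.05 in knockout animal 137 and 0.25 in knockout animal 69, and animal 64 was the highest of its group for 34 of 35 genes. Among the older mice, animal 934 of 8 months stood highest, with 1.57 in its tumor and 1.46 in its non-tumor tissue; these arrays held the highest value of all 25 for 7 and 13 genes. The wild-type arrays lay between -0.25 (animal 1110) and 0.27 (animal 31).

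**Figure D1:**
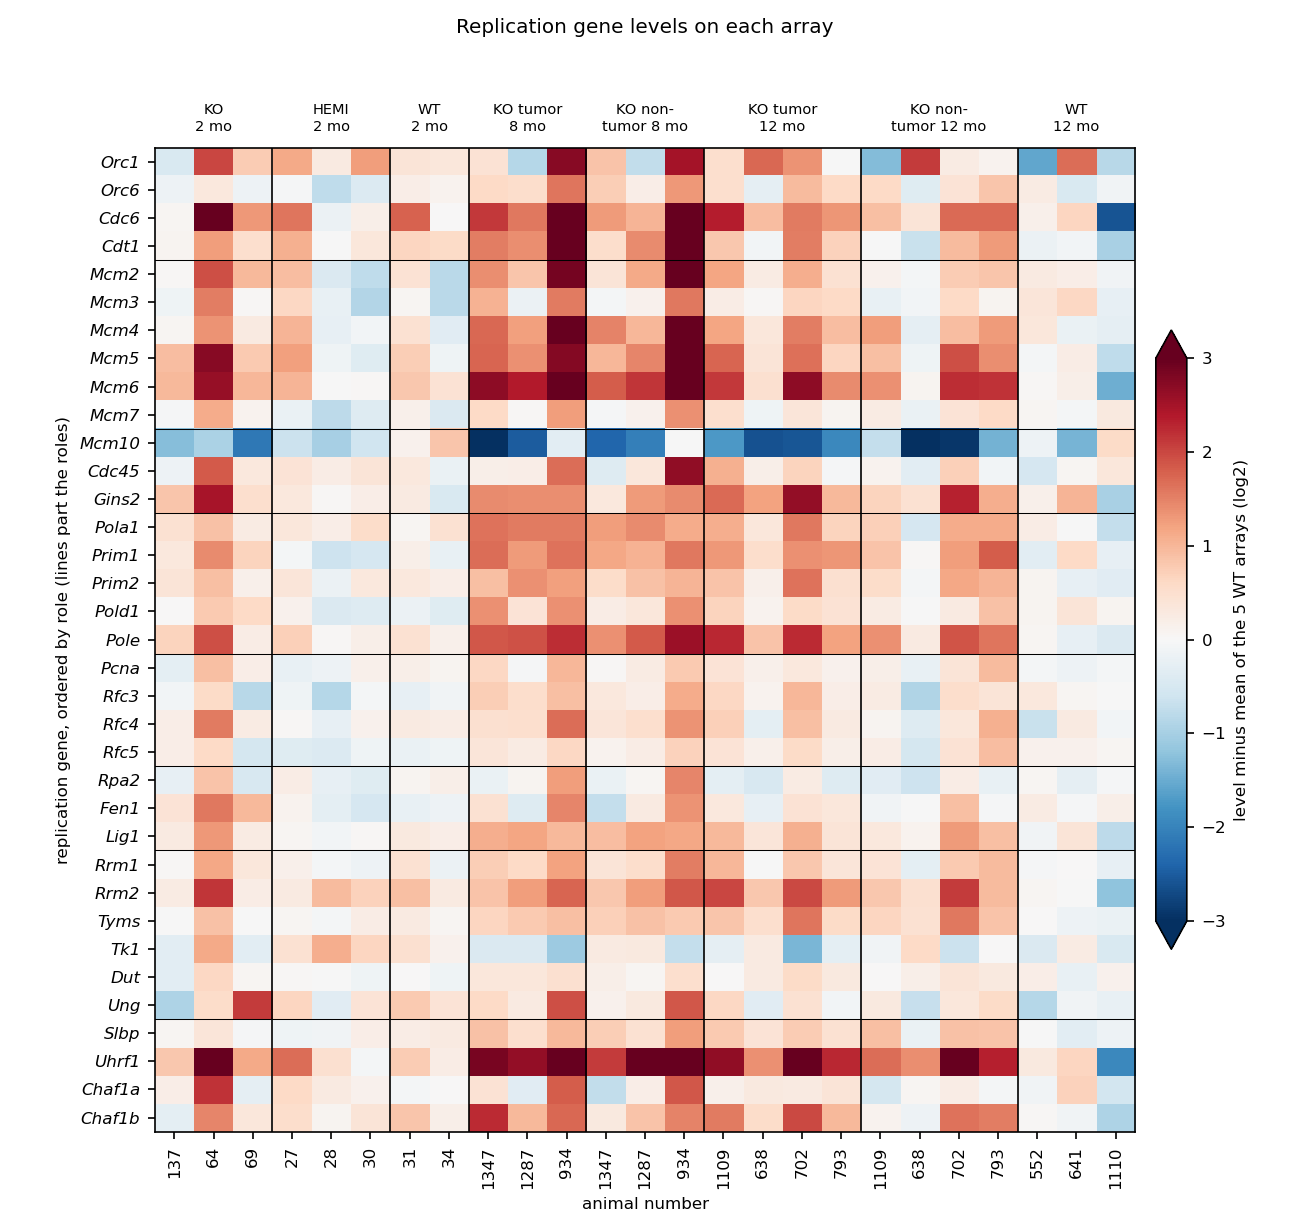
Level of each replication gene (rows, by role) on each of the 25 arrays (columns, by group and animal number), as the difference from the mean of the 5 wild-type arrays on the log2 scale. The columns of animals 64 and 934 show positive values in most rows, and the Mcm10 row shows negative values in most knockout columns.

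At 2 months, replication genes leaned to higher levels in knockout than in wild-type liver, and the lean lay mainly in 1 animal. Their median change was 0.37 on the log2 scale with 28 of 35 positive, while the 27016 features tested had a median of -0.01 and 49.0% positive. Without knockout animal 64 the median of the replication genes was -0.0015, with 17 of 35 positive; it was 0.65 without knockout animal 137, 0.57 without knockout animal 69 and 0.23 without wild-type animal 34. A fit with the slide as a block joins the genotypes only through knockout animal 137 and the hemizygous arrays. There the median of the replication genes was -0.14, with 14 of 35 positive and a median of 0.15 over all features. None passed the test in limma (Benjamini-Hochberg adjusted p under 0.05; 0 of 35, against 0.0259% of all features, 0.0111% higher and 0.0148% lower). At an unadjusted p under 0.05, 1 gene was higher and 1 lower, against 4.54% and 4.34% of all features. The knockout arrays all lay above both wild-type arrays for 7 of 35 genes, Mcm5, Mcm6, Gins2, Prim1, Pold1, Fen1 and Uhrf1, against 17.4% of all features, and below them for 1, Mcm10, against 19.1%.

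Among the factors that mark and license origins, Orc1, Orc6, Cdc6 and Cdt1 had changes between -0.15 and 0.61, with 2 of 4 positive. All 6 subunits of the MCM ring had positive changes, between 0.49 and 1.18, with a median of 0.88. Mcm6, a subunit of that ring, had levels of 2.37, 4.03 and 2.41 in knockout liver (animals 137, 64 and 69), against 2.21 and 1.84 in wild-type liver. Knockout animal 64 was far above the others, and the other knockout arrays lay just above the wild-type ones. Mcm10, which helps to start the helicase, had levels of 3.95, 4.27 and 3.08 in knockout liver, against 5.37 and 6.05 in wild-type liver (change -1.95, SE 0.82, adjusted p = 0.520). All 3 knockout arrays were below both wild-type arrays, and this was the smallest p of the 35 genes in this comparison.

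Gins2, a subunit of the GINS complex that joins the helicase, had levels of -1.88, -0.23 and -2.21 in knockout liver, against -2.44 and -3.15 in wild-type liver (change 1.36, SE 0.68, adjusted p = 0.595). Its groups did not overlap, with animal 64 highest. All 5 polymerase and primase genes had positive changes, between 0.23 and 0.82. Pold1, the catalytic subunit of polymerase delta, had levels of 0.82, 1.59 and 1.41 in knockout liver, against 0.63 and 0.44 in wild-type liver (change 0.74, SE 0.37, adjusted p = 0.603). Its groups did not overlap either (17.4% of all features were higher without overlap), and a second Pold1 probe differed by 1.05.

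The clamp gene Pcna and the clamp loader genes Rfc3, Rfc4 and Rfc5 had changes of 0.06 to 0.42. Fen1, the nuclease that trims the flaps of Okazaki fragments, had levels of -0.78, 0.39 and -0.20 in knockout liver, against -1.41 and -1.33 in wild-type liver (change 1.17, SE 0.50, adjusted p = 0.522). All knockout arrays were above both wild-type arrays. The genes of nucleotide supply and uracil removal (Rrm1, Rrm2, Tyms, Tk1, Dut and Ung) had a median of 0.15, with 4 of 6 positive. Uhrf1, which helps to copy DNA methylation onto new strands, had levels of -2.60, 0.26 and -2.28 in knockout liver, against -2.67 and -3.19 in wild-type liver. Animal 64 was high, and the other knockout arrays lay close to the wild-type ones.

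**Figure D2:**
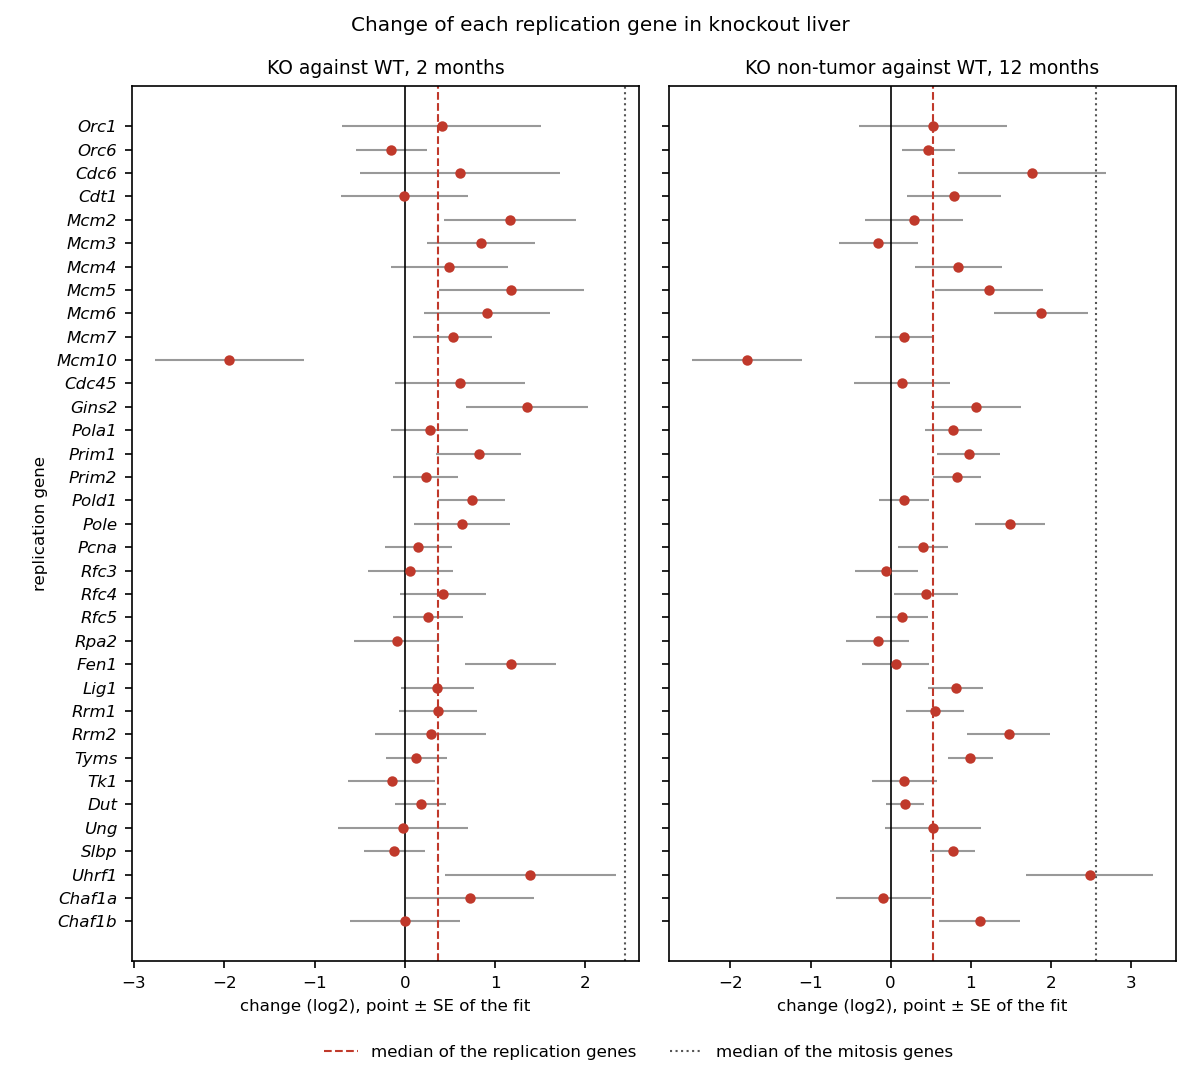
Change on the log2 scale of each replication gene between knockout and wild-type liver of 2 months and in knockout non-tumor against wild-type liver at 12 months, as points with the standard error of the fit. The medians of the replication genes are 0.37 and 0.53, and Mcm10 has the largest negative change in both panels.

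Against hemizygous liver of 2 months the same knockout arrays were compared, so that this comparison shares its samples with the one above. The median change was 0.36 with 32 of 35 positive (55.0% of all features), and 0 of 35 passed the test in limma (0.0518% of all features, 0.0333% higher and 0.0185% lower). At an unadjusted p under 0.05, 3 were higher and 0 lower, against 4.04% and 4.3%. All knockout arrays lay above all hemizygous arrays for 6 of 35 genes, against 16.0% of all features, and below them for 0, against 9.45%. Prim1, the catalytic subunit of primase, had levels of -0.24, 0.85 and 0.11 in knockout liver, against -0.62, -1.18 and -1.08 in hemizygous liver (change 1.20, SE 0.42, adjusted p = 0.449), with no overlap. Fen1 differed by 1.22, SE 0.45, adjusted p = 0.476, the ring subunit Mcm7 by 0.84, SE 0.39, adjusted p = 0.594, and Pold1 by 0.70, SE 0.33, adjusted p = 0.612. The median was 0.12 without animal 64, 0.63 without animal 137, 0.58 without animal 69 and -0.02 with the slide as a block. The slide fit rests on slide 2, the only slide with both groups, and is the difference within it. That is knockout animal 137 against hemizygous animals 27 and 28, with 16 of 35 positive.

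Hemizygous against wild-type liver showed no lean to higher levels: the median was -0.09, with 13 of 35 positive (44.3% of all features); it ranged from -0.24 without hemizygous animal 27 to 0.01 without wild-type animal 31. Among all features 0.0% passed the test in limma in either direction, as did 0 of 35 here, and 0 of 35 reached an unadjusted p under 0.05 (0.374% of all features higher and 0.862% lower). All hemizygous arrays lay below both wild-type arrays for 5 of 35 genes, against 9.83% of all features, and above them for 1, against 8.51%. Mcm10 was 1 of the lower genes, with levels of 4.57, 4.22 and 4.64 in hemizygous liver, against 5.37 and 6.05 in wild-type liver (change -1.23, SE 0.82, adjusted p = 0.999). Orc6, the smallest subunit of the origin recognition complex, differed by -0.56 (SE 0.39), the thymidine kinase Tk1 by 0.43 (SE 0.48) and Prim1 by -0.38 (SE 0.47).

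At 12 months, most replication genes had positive changes in knockout liver outside the tumors against wild-type liver, and no single gene passed the test. The median change was 0.53 with 30 of 35 positive, against a median of -0.09 and 45.0% positive among all 27024 features. In limma 0 of 35 passed, against 0.0074% of all features higher and 0.0111% lower. At an unadjusted p under 0.05, 11 of 35 were higher and 1 was lower, against 8.62% and 8.64% of all features. All knockout arrays lay above all wild-type arrays for 4 of 35 genes, Pole, Rrm2, Tyms and Uhrf1 (5.35% of all features), and below them for 0 (4.66%). Knockout animal 638 was the lowest of its group for 29 of 35 genes. Without it 7 of 35 genes passed the test, with adjusted p between 0.0137 and 0.0369, and the median was 0.80; 2856 of all features then passed as well. Without any other single animal 0 of 35 passed, and the median lay between 0.39 (without knockout animal 793) and 0.67 (without wild-type animal 641). Over all features the median was -0.11 without animal 793 and 0.22 without animal 641. With normexp correction and quantile normalisation the median of the replication genes was 0.34. The 7 genes that passed without animal 638, with their changes, were Slbp (1.04), Pole (1.83), Pola1 (1.15), Mcm6 (2.34), Prim2 (1.07), Tyms (1.14) and Prim1 (1.29).

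Tyms, which makes the thymidylate needed for DNA, had levels of 1.89, 1.70, 2.82 and 2.11 in knockout non-tumor liver (animals 1109, 638, 702 and 793), against 1.26, 1.09 and 1.05 in wild-type liver (animals 552, 641 and 1110). The groups did not overlap (change 0.998, SE 0.28, adjusted p = 0.126, 95% interval 0.40 to 1.60), and a second Tyms probe differed by 0.90. Pole, the catalytic subunit of polymerase epsilon (probe A_51_P155482; gene at GRCm38.p6 chr5:110286319-110337468), had levels of -0.06, -1.16, 0.47 and 0.19 in knockout non-tumor liver, against -1.36, -1.67 and -1.86 in wild-type liver (change 1.49, SE 0.44, adjusted p = 0.134). Animal 638 was the knockout array nearest to the wild-type group. Rrm2, the subunit of ribonucleotide reductase that is made in S phase, had levels of -0.79, -1.12, 0.49 and -0.65 in knockout non-tumor liver, against -1.54, -1.61 and -2.81 in wild-type liver (change 1.47, SE 0.51, adjusted p = 0.170). Here too animal 638 was the lowest knockout array.

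Mcm6 had levels of 2.78, 1.50, 3.62 and 3.58 in knockout non-tumor liver, against 1.45, 1.58 and -0.06 in wild-type liver (change 1.88, SE 0.59, adjusted p = 0.147). Animal 638 lay within the wild-type range and the other 3 above it. The largest positive change was that of Uhrf1 (probe A_52_P314705), with levels of -1.75, -2.02, -0.19 and -1.09 in knockout non-tumor liver, against -3.13, -2.77 and -5.35 in wild-type liver (change 2.49, SE 0.79, adjusted p = 0.149). Wild-type animal 1110 was far below the other wild-type arrays, and a second Uhrf1 probe differed by 2.52. Mcm10 had levels of 4.52, 1.84, 2.31 and 3.80 in knockout non-tumor liver, against 5.08, 3.84 and 5.80 in wild-type liver (change -1.79, SE 0.69, adjusted p = 0.200). The knockout array of animal 1109 lay within the wild-type range and the others below it.

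By role, the polymerase and primase genes (5 of 5 positive, median 0.83), the origin factors (4 of 4, median 0.66) and the nucleotide genes (6 of 6, median 0.54) were positive throughout. A second Pold1 probe differed by -0.07. In the MCM ring 5 of 6 were positive, and Mcm3 had a change of -0.15. The clamp and its loader had a median of 0.27, and Rpa2, Fen1 and Lig1, which bind single strands and finish Okazaki fragments, one of 0.06. In the chromatin group Uhrf1, Chaf1b and Slbp had changes of 2.49, 1.11 and 0.77, and Chaf1a, the large subunit of the chromatin assembly factor, had -0.09. On the first scan day alone, against wild-type animal 641 only, the median was 0.39 with 28 of 35 positive.

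**Figure D3:**
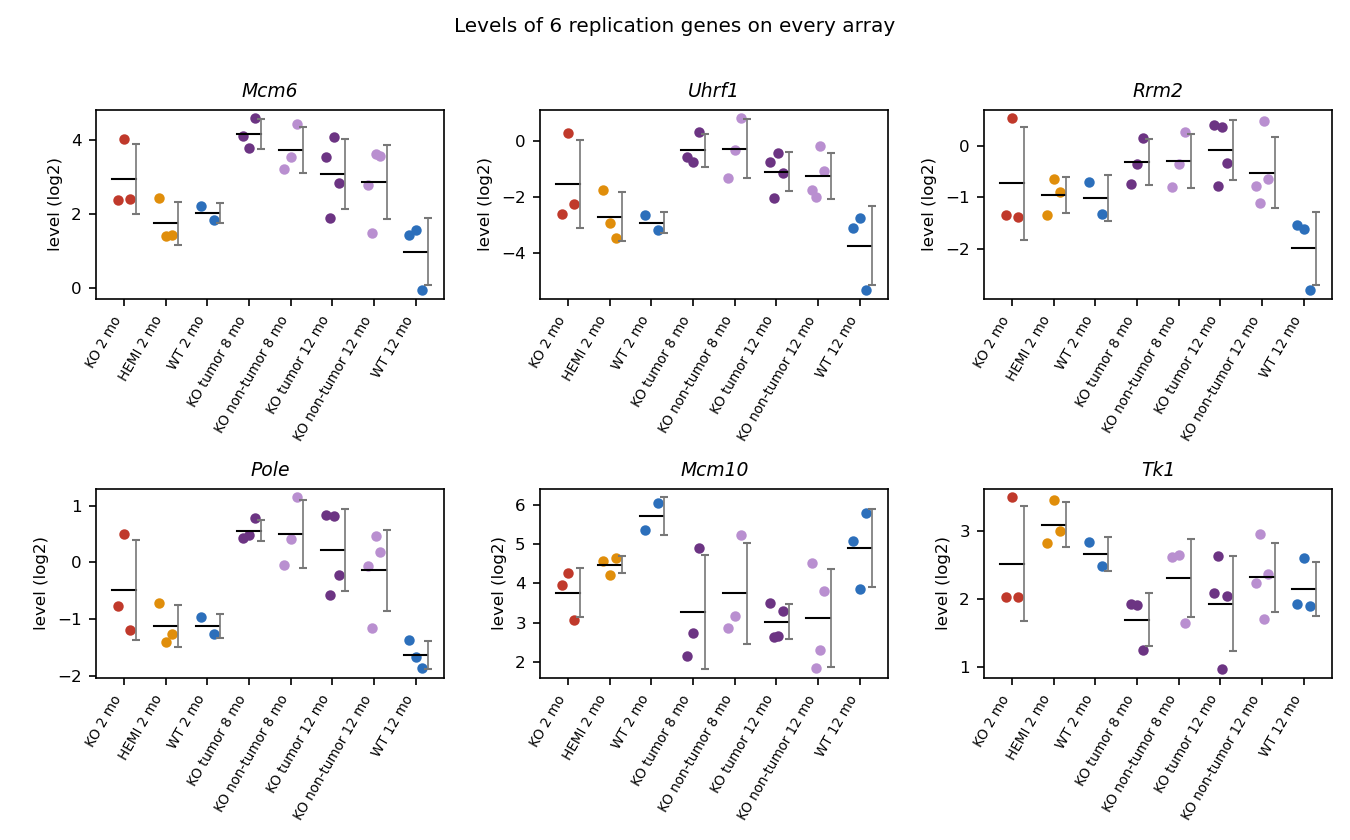
Level on every array, as points, of Mcm6, Uhrf1, Rrm2, Pole, Mcm10 and Tk1 in the 8 groups, with each group's mean and SD. Most 8-month and 12-month knockout samples lie above wild-type liver of 12 months for Mcm6, Uhrf1, Rrm2 and Pole, and below it for Mcm10.

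In knockout mice, most replication genes had positive changes in non-tumor tissue of 8 months against liver of 2 months, and each group holds 1 of the animals that stand apart. The median was 0.38 with 30 of 35 positive (49.2% of all features). Without animal 934 it was -0.0094 with 17 positive, and without animal 64 it was 0.79 with 34 positive. It was 0.08 without animal 137 and 0.22 without animal 69. In limma 0 of 35 passed (0.0% of all features), with 2 higher at an unadjusted p under 0.05 (8.54%) and 0 lower (7.54%). Mcm4, a ring subunit, had levels of 2.67, 2.16 and 4.34 at 8 months (animals 1347, 1287 and 934), against 1.22, 2.52 and 1.45 at 2 months (change 1.33, SE 0.58, adjusted p = 0.283). The groups overlapped through animals 1287 and 64. Slbp, which binds the stem-loop of histone transcripts, had levels of 2.01, 1.75 and 2.53 at 8 months, against 1.35, 1.65 and 1.24 at 2 months (change 0.68, SE 0.30, adjusted p = 0.288). Slbp and Pola1 were the 2 genes with no overlap, against 12.7% of all features; 0 genes were lower without overlap, against 11.4%. Orc6 differed by 0.75 (SE 0.35) and Pole by 0.99 (SE 0.47).

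By 12 months the non-tumor tissue of knockout mice had a median of -0.07 against knockout liver of 2 months, with 16 of 35 positive (46.1% of all features). In limma 0 of 35 passed (0.0% of all features higher and 0.0074% lower), and 0 reached an unadjusted p under 0.05 (7.11% higher and 10.3% lower). The arrays of the 2 ages overlapped in all 35 genes, while 6.64% of all features were higher and 13.4% lower without overlap. Tyms differed by 0.60 (SE 0.28), Slbp by 0.48 (SE 0.28), Fen1 by -0.80 (SE 0.42) and Chaf1a by -0.77 (SE 0.59). The median kept no direction: without animal 64 it was 0.35 with 30 of 35 positive, and without animal 137 it was -0.34 with 8 positive.

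In wild-type liver of 12 months against 2 months the median was -0.27, with 11 of 35 positive (48.5% of all features). With the slide as a block it was -0.96 with 4 positive. No slide holds wild-type liver of both ages, so that fit joins them only through hemizygous and knockout arrays, animal 64 among them. The median was -0.13 with 14 positive with the scan day as a block, and -0.18 with normexp correction and quantile normalisation. In limma 0 of 35 passed (0.0296% of all features higher and 0.0111% lower) and 0 reached an unadjusted p under 0.05 (4.86% and 5.76%). All 12-month arrays lay below both 2-month arrays for 11 of 35 genes, among them Cdt1, Mcm6, Pole, Rrm2, Tyms and Slbp, against 12.1% of all features, and above them for 4, against 15.3%. Rrm2 had levels of -1.54, -1.61 and -2.81 at 12 months, against -0.70 and -1.32 at 2 months (change -0.98, SE 0.61, adjusted p = 0.587). Mcm6 differed by -1.03 (SE 0.70), the licensing factor Cdt1 by -1.02 (SE 0.70) and Chaf1b by -0.84 (SE 0.60). In all 4 genes animal 1110 was the lowest of the 12-month group.

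Whether the knockout difference changed between 2 and 12 months was tested as a difference of differences. Its median was 0.18, with 24 of 35 positive (47.3% of all features). No gene passed the test in limma (0 of 35, and 0.0% of all features) and 0 reached an unadjusted p under 0.05 (4.77% higher and 4.83% lower). The smallest p values were those of Slbp (0.89, SE 0.44, 95% interval -0.05 to 1.83), Tyms (0.87, SE 0.44), Fen1 (-1.11, SE 0.65) and Rrm2 (1.19, SE 0.80). Leaving out 1 animal moved the median between -0.05 (without animal 137) and 0.57 (without animal 64).

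Most replication genes had small positive differences between tumors and the non-tumor tissue of the same animal, and the animals differed in direction. Over 7 pairs the median difference was 0.14, with 30 of 35 positive (46.5% of all 24580 features). In limma 0 of 35 passed (0.0% of all features); at an unadjusted p under 0.05, 1 was higher and 1 lower, against 2.34% and 1.7%. The median over the genes of tumor minus non-tumor was 0.48 in animal 1347, 0.44 in animal 1109, 0.33 in animal 638, 0.13 in animal 702, 0.0084 in animal 1287, -0.03 in animal 934 and -0.41 in animal 793. In animal 793 30 of 35 genes were lower in the tumor, while in animals 1347, 1109 and 638 30 or 31 of 35 were higher. Only animal 1347 had its arrays on different slides and scan days. Its tumor lay on slide 4, scanned on the second day, and its non-tumor sample on slide 5, scanned on the first. Leaving out 1 animal moved the median difference between 0.08 (without animal 1109) and 0.23 (without animal 793).

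The medians of the tumors and of the non-tumor samples varied more between animals than tumor minus non-tumor did, which was not tested. The median deviation from wild type spanned 0.26 to 1.57 over the 7 tumors (SD 0.43) and -0.08 to 1.46 over the 7 non-tumor samples (SD 0.50), while tumor minus non-tumor had an SD of 0.31. Animal 934 was the highest and animal 638 the lowest in both tissues. In the 6 animals whose arrays lay on 1 slide the median difference was 0.13, with 25 of 35 positive.

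Tk1, the thymidine kinase of the salvage pathway (probe A_51_P224013; gene at GRCm38.p6 chr11:117815519-117826087), was the 1 replication gene lower in the tumor in all 7 animals; 0.85% of all features were so. Tumor minus non-tumor was lowest at -0.74, -0.39 in the median and highest at -0.15 (change -0.48, SE 0.14, adjusted p = 0.999, 95% interval -0.79 to -0.17). No replication gene was higher in the tumor in all 7 animals (0.618% of all features). Gins2 had differences from -0.11 to 1.11, higher in 5 of 7 animals (change 0.46, SE 0.19, adjusted p = 0.999). Chaf1b, a subunit of the chromatin assembly factor, had differences from -0.56 to 1.96, higher in 6 of 7 (change 0.61, SE 0.29, adjusted p = 0.999). Pola1, the polymerase that extends primers, had differences from -0.46 to 0.83, higher in 6 of 7 (change 0.31, SE 0.17, adjusted p = 0.999). In each of these last 3 genes animal 793 had the lowest difference. The highest differences of Gins2 and Chaf1b were those of animal 1347, whose arrays lay on different slides.

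**Figure D4:**
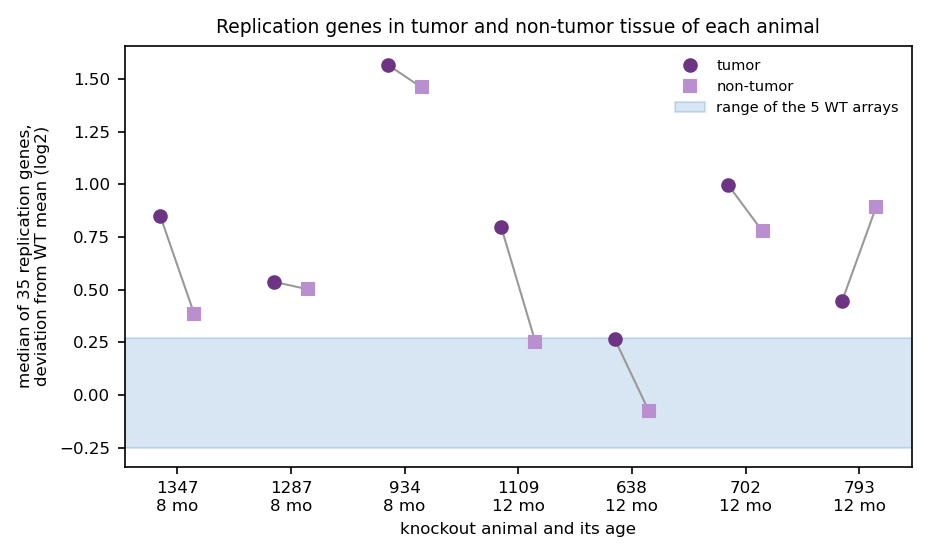
Median over the 35 replication genes of the deviation from the wild-type mean (log2), in tumor and non-tumor tissue of the 7 older knockout animals; lines join the tissues of an animal and the band is the range of the 5 wild-type arrays. Animal 934 is highest and animal 638 lowest in both tissues, and animal 793 has the largest excess of non-tumor over tumor tissue.

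The tumor difference at 12 months minus that at 8 months had a median of 0.02, with 19 of 35 positive (58.6% of all features). None passed in limma (0 of 35, and 0.0% of all features) and 0 reached an unadjusted p under 0.05 (5.41% higher and 0.651% lower). Orc1 had the smallest p (0.72, SE 0.56), on a probe well above background on 12 of 25 arrays, and its sign turned with normexp correction and in the authors' deposited log2 table. Rrm2 (0.45, SE 0.37), the helicase factor Cdc45 (0.55, SE 0.45) and Mcm10 (0.38, SE 0.47) followed.

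Most replication genes had positive changes in tumors of 12 months against wild-type liver of that age, and 1 passed the test. The median change was 0.63, with 32 of 35 positive (48.5% of all 28339 features). All 4 tumors lay above all 3 wild-type arrays for 14 of 35 genes (8.58% of all features) and below them for 1, Mcm10 (7.33%). In limma 1 of 35 was higher, Pole, against 0.674% of all features, and 0 lower, against 0.448%. At an unadjusted p under 0.05, 15 were higher and 1 lower, against 9.62% and 8.81%. Pole had levels of 0.84, -0.57, 0.82 and -0.22 in tumors (animals 1109, 638, 702 and 793), against -1.36, -1.67 and -1.86 in wild-type liver (change 1.85, SE 0.43, adjusted p = 0.0474), with no overlap. The call was lost without wild-type animal 641 (adjusted p = 0.0605) or 1110 (0.253), and without tumor 1109 (0.0938), 702 (0.149) or 793 (0.0510). Over the alternatives run 4 to 1480 of all features passed. The count of replication genes past the test was 2 without wild-type animal 552 and 3 without tumor 638. With the slide in place of the animal as the random block the adjusted p was 0.136. No slide holds both groups, so this fit does not compare them within slides.

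Rrm2 had levels of 0.42, -0.78, 0.37 and -0.33 in these tumors, against -1.54, -1.61 and -2.81 in wild-type liver (change 1.91, SE 0.47, adjusted p = 0.0520). All tumors were above all wild-type arrays, with tumor 638 lowest. Mcm6 differed by 2.09, SE 0.56, adjusted p = 0.0619, and Uhrf1 by 2.64, SE 0.71, adjusted p = 0.0619, both with no overlap. Mcm10 had levels of 3.50, 2.63, 2.66 and 3.29 in tumors, against 5.08, 3.84 and 5.80 in wild-type liver (change -1.89, SE 0.64, adjusted p = 0.118).

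Most replication genes moved together from array to array. Over the 25 arrays, 29 of 35 genes had a correlation above 0.7 with the mean of the other replication genes, and 8 had one above 0.9, led by Mcm5 (r = 0.97), Rrm1 (r = 0.96) and Mcm6 (r = 0.92). The arrays share animals, slides and the scaling, so these values describe the arrays and carry no test. The range of levels over the arrays was 6.16 for Uhrf1, 1.29 for Pcna and 0.93 for the dUTPase gene Dut. Orc1 had r = 0.42, and 2 genes were below 0, Mcm10 (r = -0.18) and Tk1 (r = -0.42). Mcm10 and Tk1 had 1 probe each, and what else those probes may bind was not tested.

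Mcm10 (probe A_51_P212682; gene at GRCm38.p6 chr2:4990724-5012791) spanned 3.08 to 4.27 in knockout liver of 2 months and 4.22 to 4.64 in hemizygous liver, against 5.37 to 6.05 in wild-type liver of that age. It spanned 2.15 to 4.91 in tumors and 2.86 to 5.22 in non-tumor tissue of 8 months. Animal 934 was the highest in both, with 4.91 in its tumor and 5.22 in its non-tumor tissue, within the range of wild-type liver of 12 months (3.84 to 5.80). For Tk1 the lowest arrays were those of tumors 702 (0.97) and 934 (1.26), the 2 tumors with the highest median of the replication genes. The highest Tk1 level was that of knockout animal 64 (3.49).

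Genes of mitosis act once the genome is copied, and their medians are set here beside those of the replication genes. All 26 measured mitosis genes had positive changes between knockout and wild-type liver of 2 months (median 2.44), in knockout non-tumor against wild-type liver at 12 months (2.56) and in tumor against non-tumor tissue (0.30), with 0 past the test in limma in these. In tumors against wild-type liver at 12 months 13 of 26 passed (median 3.05), against 1.12% of all features. That count was 0 with no filter, with the mean of all probes, and without wild-type animal 1110, tumor 1109 or tumor 702. It was also 0 with no block for the animal and with the slide in place of the animal as the random block. The scan day as a block gave 1, and leaving out tumor 793 gave 4. The authors' deposited log2 table gave 20 and a trended, robust variance gave 21. Over the alternatives run 4 to 1480 of all features passed there. In non-tumor tissue of 12 months 16 of 26 passed without knockout animal 638 (median 2.98), 4 with a trended, robust variance, 4 of 10 with features well above background on every array and 1 in the deposited table. With normexp correction and quantile normalisation the mitosis medians were 1.27 at 2 months, 1.25 in non-tumor tissue of 12 months, 0.20 in the tumor pairs and 1.52 in tumors against wild-type liver. The 2-month median was 1.35 with the slide as a block, that of non-tumor tissue at 12 months 1.69 with the scan day as a block, and that of the pairs 0.13 without animal 1109. Without animal 64 the mitosis median at 2 months was 1.74, beside -0.0015 for the replication genes. Knockout animals 137 and 69 had mitosis medians of 2.24 and 1.47 above the wild-type mean, with replication medians of 0.05 and 0.25. Animal 934 had mitosis medians of 1.30 in its tumor and 1.11 in its non-tumor tissue, the lowest of the 7 older knockout animals in each tissue, and the highest replication medians. The difference between these gene groups was not tested.

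**Figure D5:**
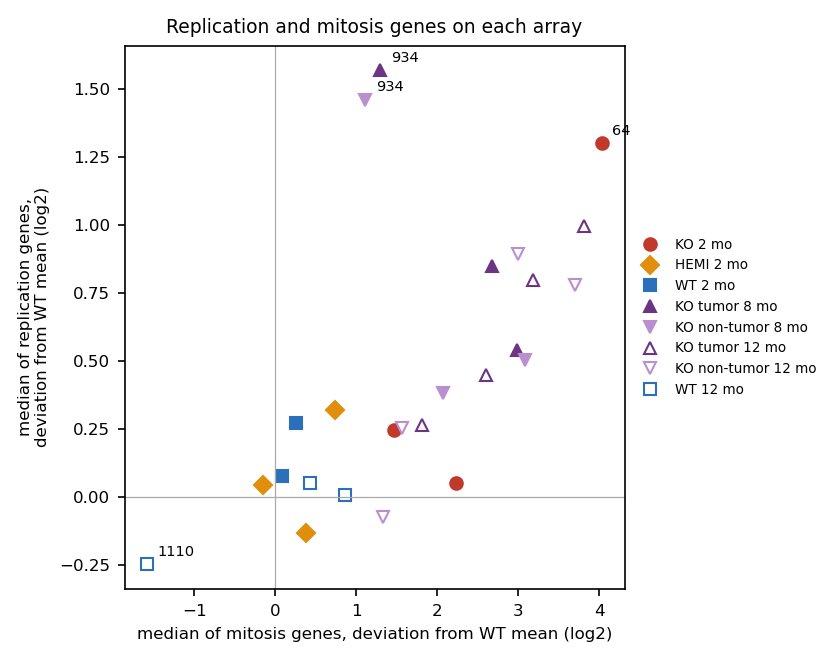
Each point is 1 of the 25 arrays, with the median of 26 mitosis genes on the horizontal and the median of 35 replication genes on the vertical axis, both as deviation from the wild-type mean on the log2 scale. Animal 64 is highest on the mitosis axis, both arrays of animal 934 are highest on the replication axis, and wild-type animal 1110 is lowest on both.

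Of the mitosis genes, the kinase gene Aurka (2.38, SE 0.67), Cdc20 (3.50, SE 0.995), an activator of the anaphase-promoting complex, and Ube2c (2.62, SE 0.75), its ubiquitin-conjugating enzyme, had the smallest p values at 2 months. At 12 months they were the centromere histone Cenpa (2.06, SE 0.49), Aurka (2.34, SE 0.56) and Aurkb (3.42, SE 0.84). In the tumor pairs they were Ccnb1 (0.70, SE 0.20), Cenpe (0.53, SE 0.24) and Cdk1 (0.62, SE 0.29).

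Other replication genes outside the list had medians of 0.08 with 28 of 51 positive between knockout and wild-type liver of 2 months, 0.37 with 35 of 51 at 12 months and 0.02 with 31 of 51 in the tumor pairs, and 0 passed the test in limma in these. At 2 months the smallest p values were those of the alternative clamp loader gene Chtf18 (1.85, SE 0.65), the GINS subunit Gins3 (1.34, SE 0.50) and the maintenance methyltransferase Dnmt1 (0.74, SE 0.32). At 12 months the polymerase delta subunits Pold3 (0.95, SE 0.25) and Pold2 (-1.22, SE 0.36) were among those of smallest p, with opposite signs. In the tumor pairs the smallest p values were those of the histone-binding Rbbp4 (-0.34, SE 0.15), Orc4 (0.31, SE 0.16) and the origin-firing kinase Cdc7 (0.42, SE 0.23).

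Among 20 measured regulators of S phase, 11 had positive changes at 2 months (median 0.03), 11 at 12 months (median 0.24) and 15 in the tumor pairs (median 0.18). E2f2, a transcription factor that activates S phase genes, differed by 2.29, SE 0.37, adjusted p = 0.0529 at 2 months and by 1.43, SE 0.31, adjusted p = 0.100 at 12 months. It passed the test in knockout against hemizygous liver (change 2.24, SE 0.33, adjusted p = 0.0297). That call was lost without hemizygous animal 28, hemizygous animal 30 or knockout animal 64, where 0 of all features passed. The retinoblastoma family gene Rbl1 differed by 1.39 (SE 0.49) at 2 months and by 1.72 (SE 0.41) at 12 months, and it passed the test in tumors against wild-type liver of 12 months (change 2.07, SE 0.41, adjusted p = 0.0445). E2f7, an E2F that represses, differed by 1.62 (SE 0.57) at 2 months and E2f5 by 0.89 (SE 0.22) at 12 months. In the tumor pairs the smallest p values were those of Rbl2 (-0.59, SE 0.19), Ccne1 (0.99, SE 0.38) and Cdkn1a (0.78, SE 0.31).

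Markers of some other cell types moved with the same comparisons, and their part in the replication result was not tested. At 2 months all 12 macrophage markers had positive changes (median 1.56), and their summed level, on the linear scale relative to the 75th percentile, was 113 to 125 in knockout and 47.9 to 49.98 in wild-type liver, where Gpnmb and Itgam were not well above background. All 6 tested neutrophil markers had positive changes, with summed levels of 1.80 to 6.81 in knockout liver, animal 64 highest, and 0.303 to 0.636 in wild-type liver. Elane was not well above background in either group, nor were S100a8, Camp and Ngp in wild-type liver. For T, NK and B cell markers 9 of 12 were positive, with 1.69 to 1.92 in knockout and 1.20 to 2.81 in wild-type liver. For stellate and matrix markers 9 of 10 were positive, with 129 to 163 in knockout and 63.3 to 64.6 in wild-type liver. Endothelial markers summed to 11.6 to 31.2 in knockout and 20.8 to 21.5 in wild-type liver, and erythroid markers to 23.3 to 128 in knockout and 134 to 143 in wild-type liver.

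At 12 months all 12 macrophage markers had positive changes, with summed levels of 111 to 316 in knockout non-tumor and 24.2 to 102 in wild-type liver. For T, NK and B cell markers 10 of 12 were positive, with 5.05 to 8.67 in knockout non-tumor and 1.78 to 4.30 in wild-type liver. For cholangiocyte and progenitor markers 6 of 8 were positive, with 29.5 to 194 in knockout non-tumor and 11.9 to 17.1 in wild-type liver. Hepatocyte markers summed to 1770 to 2524 in knockout non-tumor and 2557 to 3746 in wild-type liver, with 2 of 8 positive. Of the stellate and matrix markers 7 of 10 were positive, of the neutrophil markers 4 of 6, of the erythroid markers 0 of 6 and of the endothelial markers 6 of 8. In tumors against wild-type liver at 12 months 11 of 12 macrophage markers were positive (median 1.70, 1 past the test in limma, Lyz2), with summed levels of 127 to 207 in tumors and 24.2 to 102 in wild-type liver. Cholangiocyte and progenitor markers, 5 of 8 positive, summed to 24.9 to 234 in tumors and 11.9 to 17.1 in wild-type liver. Hepatocyte markers, 1 of 8 positive, summed to 1848 to 2536 in tumors and 2557 to 3746 in wild-type liver. For T, NK and B cell markers 10 of 12 were positive, with 2.59 to 7.28 in tumors and 1.78 to 4.30 in wild-type liver. Of the stellate and matrix markers 6 of 10 were positive, while Acta2 passed the test in limma as lower in tumors (change -1.47, SE 0.32, adjusted p = 0.0460). Of the neutrophil markers 5 of 6 were positive, of the erythroid markers 1 of 6 and of the endothelial markers 4 of 8. In the tumor pairs 4 of 12 macrophage markers were positive. Animal 934, the highest for the replication genes, had macrophage sums of 60.3 in its tumor and 72.3 in its non-tumor tissue, the lowest of the 7 older knockout animals in each.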

How the data were processed

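RNA of whole mouse liver homogenates was labelled with Cy3 and hybridised to single-colour Agilent arrays; the deposited scanner files hold, per spot, the processed signal intensity and the median signal and background intensities, per the file headers. A deposited table of the series holds the authors' log2 values, which follow the log2 of the median signal with a Spearman correlation of at least 0.9998. The submitters' processing notes name limma, with no version given.

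The processed intensity was divided by the 75th percentile of its array and put on the log2 scale. Control spots and outlier-marked spots were left out, spots of a probe were averaged, and the probe of the highest mean signal stood for a gene. Accessions were paired with symbols through the RefSeq table. Features well above background on at least 2 of the arrays fitted, or 3 of the 14 paired arrays, were tested with limma 3.58.1 (lmFit and eBayes, two-sided) in R 4.3.3, adjusted by Benjamini-Hochberg at 0.05. The 18 arrays were fitted as 6 groups, the 14 paired arrays with animal as a block, and tumors of 12 months against wild type on all 25 arrays with animal as a random block. The pairing comes from the animal numbers in the labels. The number of arrays limits the precision. The fits were tested on simulated data.

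The members and all gene lists were chosen with earlier results of these data known. All 36 members could be named; full values went to up to 4 members of smallest p per comparison, and to up to 3 genes of smallest p of each other list in the 2-month, 12-month and paired comparisons; further values of Mcm6, Uhrf1, Rrm2, Mcm10, Tk1 and Pole were chosen after their values were seen. One gene that the rule would name is not reported here. The alternatives were normalisation, background correction, the deposited log2 table, the filter, the probe rule, the variance model, the slide or scan day as a block, the samples fitted, and leaving out each animal. The planned background correction named the mean signal; the files given here hold the median signal, which was used in its place.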

Additional observations from a re-analysis of the deposited data

Results flagged for a closer look

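The 35 replication genes in the 2 groups of 4 samples gave 70 sets of values, which were screened for 1 sample far from the other 3, by the gap to the nearest sample as a share of the group's range, and 3 passed; chance gives about 1 in 20. In tumors of 12 months, Prim1 was lowest in animal 638, with a share of 0.922 (levels -0.05 to 0.80). In non-tumor tissue of 12 months, Fen1 was highest in animal 702, with a share of 0.902 (levels -1.29 to -0.28). In the same tissue Slbp was lowest in animal 638, with a share of 0.956 (levels 1.09 to 2.19). The cause of these gaps was not tested.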

How the results depend on the processing

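The count of replication genes past the test stayed at 0 under the alternatives run in 9 of the 11 comparisons. In knockout non-tumor against wild-type liver at 12 months it ranged from 0 to 7 when 1 animal was left out, the highest without knockout animal 638. Without that animal 2856 of all features passed as well. In tumors against wild-type liver at 12 months the count of 1 became 2 with quantile normalisation, and 5 with normexp correction and quantile normalisation. It became 6 in the deposited log2 table, 9 with features well above background on every array and 5 with a trended, robust variance. No filter, the mean of all probes and the scan day as a block gave 0. So did the slide in place of the animal as the random block, a fit that does not compare the groups within slides. Left-out animals gave 0 to 3. Among all features 4 to 1480 passed there over the alternatives run, against 318 in the main fit. The fit with no replicate block for the animal gave 0 there. In the tumor pairs 0 of all features passed with or without that block, so the count of calls cannot check the pairing. The cause of these moves was not tested. The median change in wild-type liver with age was -0.96 with the slide as a block, against -0.27. That fit joins the 2 ages only through hemizygous and knockout arrays. Orc1 in the tumor difference between ages turned to -0.055 with normexp correction and to -0.068 in the deposited table. Over 731 alternatives of 44 gene results named by the rule, 702 kept direction and side of the threshold, 10 lost the call (all Pole in tumors of 12 months), 17 gained one and 2 turned. The scan day as a block moved the median of all features to -0.52 in knockout non-tumor against wild-type liver at 12 months, to -0.39 in tumors against wild-type liver and to 0.46 in wild-type liver with age, so changes there are relative to those medians. Cdc6 and Orc1, dim on some arrays, are the least well measured.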
